A study of Mus musculus with 8 samples.

Results

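The transcripts described here are those of 7 genes of the thick ascending limb, distal tubule and collecting duct of the kidney: Umod, Egf, Calb1, Pvalb, Fxyd2, Aqp2 and Aqp3. They were picked by name, and all 7 were found among the 17326 genes that the count table carries on complete lines. The table comes from 8 mouse RNA-seq libraries of polyA RNA, made with Illumina's TruSeq protocol from kidney cells sorted by flow cytometry. The cells were glomerular endothelium or podocytes, from EMCN+/+ mice (wild type, WT) or EMCN-/- mice (knockout, KO), with 2 libraries in each of the 4 groups, numbered 2 and 3. EMCN is endomucin, a sialomucin of the endothelial surface, and podocytes are the epithelial cells that cover the glomerular capillaries. The gene was lost in the animals from which both KO cell types came. Strain, age, treatment, the sorting markers and the number of animals behind a library are not given in the sources used here. No group is labelled as tubule, so each value below is the level of a tubule transcript within a population sorted for another cell type. In such bulk libraries, fewer cells of a type and less RNA per cell cannot be told apart.

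The nephron's distal segments follow one another and carry different proteins. The thick ascending limb reabsorbs salt without water and secretes uromodulin (Umod), the most abundant protein of normal urine, and its cells and those of the early distal convoluted tubule make the precursor of epidermal growth factor (Egf). The distal convoluted tubule fine-tunes sodium, calcium and magnesium: parvalbumin (Pvalb) marks its early portion, calbindin-D28k (Calb1) buffers calcium during transcellular transport there and in the connecting tubule, and Fxyd2 encodes the gamma subunit that modulates the Na,K-ATPase. In the principal cells of the collecting duct, vasopressin moves aquaporin-2 (Aqp2) to the apical membrane and aquaporin-3 (Aqp3) lets water leave across the basolateral side.

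By their levels the genes were divided into 2 sets, described below, a division that is weaker without KO podocyte 2: Umod, Egf, Fxyd2, Pvalb and Calb1 in the first and Aqp2 and Aqp3 in the second. The 250 bases before the start of a pair of genes from each set are printed so that the upstream sequence can be seen beside the shared pattern. They are from RefSeq's GRCm38.p6 table, which matched 5 of the 7 genes, and they are read 5′ to 3′ on the gene's own strand. Capitals mark matches to 4 short motifs searched on both strands, none overlapping another. GTTAAT is a stretch of the site bound by HNF1 factors. ACGTCA is a stretch of the cyclic AMP response element. AGATAA is the core bound by GATA factors. TATAAA is the core of the box bound by the general transcription machinery. These motifs were chosen after the sequences had been seen.
Umod, chr7:119479263-119479512, minus strand: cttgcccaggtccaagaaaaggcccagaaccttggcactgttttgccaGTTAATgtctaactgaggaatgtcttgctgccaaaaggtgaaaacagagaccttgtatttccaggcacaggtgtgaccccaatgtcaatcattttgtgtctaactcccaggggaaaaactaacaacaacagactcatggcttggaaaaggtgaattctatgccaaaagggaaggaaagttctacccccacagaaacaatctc
Egf, chr3:129755323-129755572, minus strand: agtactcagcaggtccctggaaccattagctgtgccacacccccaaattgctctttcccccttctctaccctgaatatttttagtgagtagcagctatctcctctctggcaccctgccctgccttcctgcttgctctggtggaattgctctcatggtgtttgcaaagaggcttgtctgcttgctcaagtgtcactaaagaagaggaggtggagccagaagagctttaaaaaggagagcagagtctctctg
Aqp2, chr15:99578806-99579055, plus strand: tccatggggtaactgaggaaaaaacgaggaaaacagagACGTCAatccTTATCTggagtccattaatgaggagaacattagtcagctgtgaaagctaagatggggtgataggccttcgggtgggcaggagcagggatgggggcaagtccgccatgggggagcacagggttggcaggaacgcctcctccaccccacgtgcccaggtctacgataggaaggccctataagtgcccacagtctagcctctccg
Aqp3, chr4:41098184-41098433, minus strand: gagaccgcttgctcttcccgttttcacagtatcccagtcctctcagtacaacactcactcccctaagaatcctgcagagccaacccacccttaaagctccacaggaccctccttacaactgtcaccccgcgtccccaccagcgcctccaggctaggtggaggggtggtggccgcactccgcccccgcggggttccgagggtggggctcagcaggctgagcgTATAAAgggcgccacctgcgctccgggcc
The Umod window held GTTAAT, which begins 202 bases before the start and occurs in 6.44% of the 32817 windows of this length in the table. The Aqp2 window held ACGTCA 212 bases before the start (6.46% of windows) and AGATAA in reverse complement, printed as TTATCT, 202 bases before it (9.99% of windows). The Aqp3 window held TATAAA 29 bases before the start (12.4% of windows). No match to any of the 4 was found in the windows of Egf and Pvalb, and no motif was found in more than 1 of the 5 genes. These matches describe letters in a window and say nothing of binding.

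On GRCm38.p6 the genes lie apart except for shared chromosomes. Umod is at chr7:119462708-119479262, Egf at chr3:129677574-129755322, Calb1 at chr4:15881264-15906709 and Aqp3 at chr4:41092724-41098183. Pvalb is at chr15:78191112-78206400, Aqp2 at chr15:99579056-99584545 and Fxyd2 at chr9:45399709-45410278. All 7 are annotated as protein-coding. Egf overlaps 6330410L21Rik and Aqp2 overlaps Gm34765. The strand setting of the counting is not given in the sources used here, so reads in those overlaps cannot be assigned with certainty.

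The libraries held 10478956 to 17386042 counts on complete lines. Sorting separated the labelled cell types: all 12 endothelial markers were higher in endothelium (median log2 fold change 4.34 over the genotypes) and all 7 podocyte markers analysed, of 12 listed, were higher in podocytes (median -3.31). Emcn was lower in KO than in WT in endothelium (log2 fold change -3.43, SE 0.35, adjusted p = 0.0205) and in podocytes (-3.38, SE 0.36, adjusted p = 0.0321). It was at 1972 and 1828 CPM in WT endothelium 2 and 3, but only at 74.1 and 35.9 in WT podocyte 2 and 3. Whether the podocyte reads are carried-over endothelial RNA was not tested. No gene was called in either cell type by library totals without TMM or at a minimum mean of 5 CPM, in endothelium with any endothelial library left out, or in podocytes by voom, with only the podocyte libraries fitted, or without WT endothelium 2 or 3, WT podocyte 2, or KO podocyte 2 or 3. Mitochondrial transcripts took 10.1% to 26.2% of counts. Adjusted p-values are from edgeR's quasi-likelihood test with Benjamini-Hochberg adjustment across 16477 genes, and a gene passed where its adjusted p was under 0.05. The labels do not say that libraries of a group came from separate animals, so these p-values measure the spread between these samples, which may be technical.

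All 7 transcripts were read in every library, and together they were abundant. Of all counts in KO endothelium 2 they made up 0.501% (0.497 to 0.505, Wilson's 95% interval), the smallest share of the 8 libraries. The largest was 1.94% in WT endothelium 3 (1.929 to 1.942). The other endothelial libraries held 1.15% (WT endothelium 2) and 1.20% (KO endothelium 3). Among podocyte libraries the share was 0.783% in WT podocyte 2, 1.54% in WT podocyte 3, 0.661% in KO podocyte 2 and 1.24% in KO podocyte 3. These intervals cover counting error only.

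Among the transcripts of the thick ascending limb, Umod varied 7.80-fold over the 8 libraries. In CPM, the counts of a gene relative to a fixed total with libraries scaled by edgeR's TMM factors, Umod was at 3716 and 9554 in WT endothelium 2 and 3, and at 1317 and 3611 in KO endothelium 2 and 3. It was at 1734 and 6018 in WT podocyte 2 and 3, and at 1225 and 5416 in KO podocyte 2 and 3. WT endothelium 3 was the highest library and KO podocyte 2 the lowest, and the libraries of the cell types overlapped. The group means were 6635 ± 4129 CPM in WT endothelium, 2464 ± 1622 in KO endothelium, 3876 ± 3029 in WT podocytes and 3321 ± 2963 in KO podocytes (SD, n = 2 in each).

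Egf, the growth factor precursor, varied 5.58-fold. Its levels were 1398 and 2159 CPM in WT endothelium 2 and 3, 387.0 and 1075 in KO endothelium, 1038 and 1773 in WT podocytes, and 490 and 1696 in KO podocytes, each pair in the order of library 2 and library 3. The order of libraries was close to that of Umod (Spearman's rho 0.98 over 8 libraries), with the lowest values again in KO endothelium 2 and KO podocyte 2.

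Of the distal convoluted tubule transcripts, Pvalb had the widest range of the 7 genes, 18.96-fold. It was at 124 and 258 CPM in WT endothelium 2 and 3, 13.6 and 154 in KO endothelium, 103 and 108 in WT podocytes, and 21.2 and 100.3 in KO podocytes. The 193 counts in KO endothelium 2 and 341 in KO podocyte 2 stand below all other libraries, which held 1360 or more. The SD was 3.58 CPM around a mean of 105 in WT podocytes and 99.1 around a mean of 83.7 in KO endothelium, where the libraries differed 11.3-fold.

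Calb1, the calcium buffer, was at 2231 and 2439 CPM in WT endothelium 2 and 3 and at 2477 and 3898 in WT podocytes. It was at 556 and 2191 CPM in KO endothelium and at 867 and 1351 in KO podocytes. On this scale all 4 KO libraries lay below all 4 WT libraries, with KO endothelium 3 (2191) just under WT endothelium 2 (2231). Scaled by library totals without TMM they overlapped: Calb1 was at 2430 in KO endothelium 3, against 2372 and 2037 in WT endothelium. Fxyd2, the Na,K-ATPase modulator, was at 2734 and 5962 CPM in WT endothelium, 908 and 3324 in KO endothelium, 2559 and 3001 in WT podocytes, and 1562 and 3505 in KO podocytes. Here the genotypes overlapped in both cell types, and the whole range was 6.56-fold.

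The collecting duct aquaporins had another order of libraries. Aqp2 was at 437 and 2142 CPM in WT endothelium 2 and 3, 529 and 300.4 in KO endothelium, 657 and 1204 in WT podocytes, and 1803 and 469 in KO podocytes. Aqp3 was at 188 and 657 CPM in WT endothelium, 225 and 174 in KO endothelium, 254 and 520 in WT podocytes, and 698 and 254 in KO podocytes. WT endothelium 3 and KO podocyte 2 were the top libraries for both genes, and KO endothelium 3 was the lowest. KO podocyte 2, high for both aquaporins, was the lowest library for Umod and the next lowest, after KO endothelium 2, for Egf, Pvalb, Fxyd2 and Calb1.

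**Figure D1:**
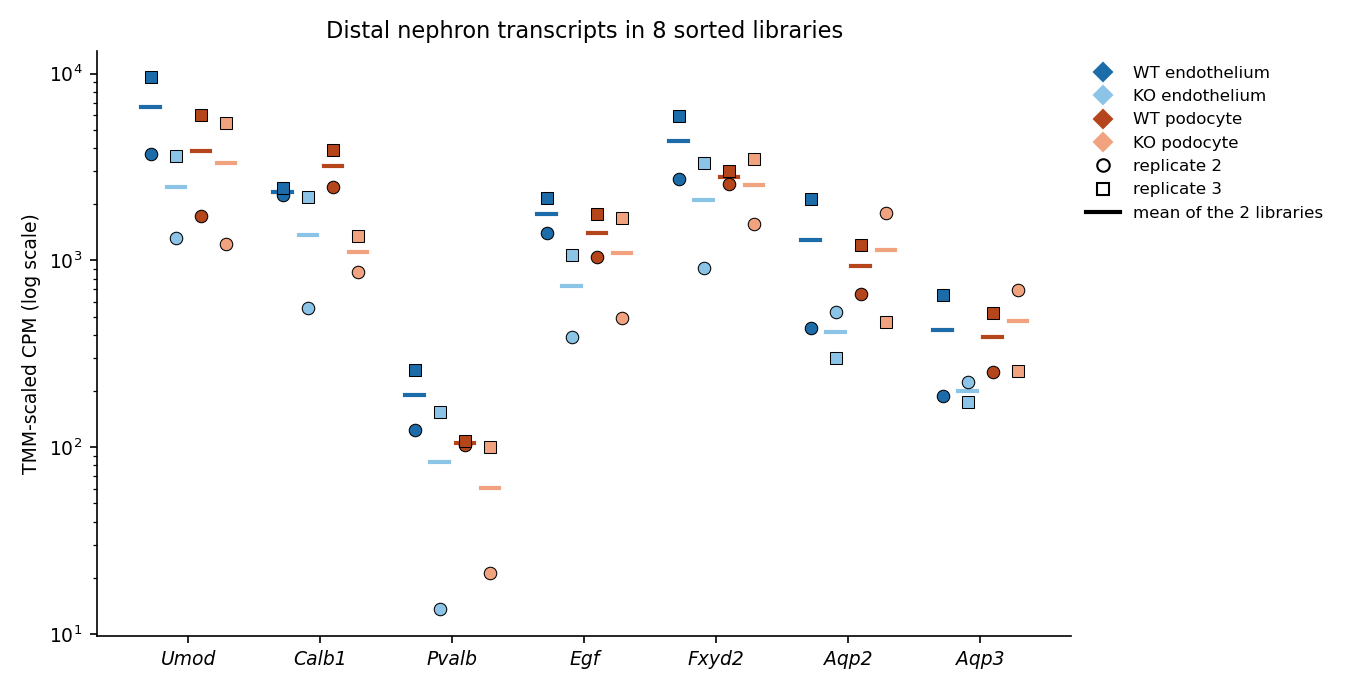
Level of each gene in each of the 8 libraries, in TMM-scaled CPM on a log axis, with 1 point per library and the groups marked by colour. Umod runs from 1225 to 9554 and Pvalb from 13.6 to 258, and the libraries of a group lie far apart for most genes.

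Per length of transcript the order of levels was led by Fxyd2. Taken over the 8 libraries, its mean was 4408 CPM per kilobase of its longest coding transcript, followed by Umod with 1552, Aqp2 with 664, Calb1 with 474, Egf with 263, Aqp3 with 210 and Pvalb with 113. Neighbours in this order overlapped in their ranges over libraries, and by the median Calb1 (524) came before Aqp2 (418). On the same scale, Fxyd2 was at 6509 ± 3418 and Umod at 2528 ± 1573 in WT endothelium (SD, n = 2), beside group means of 1176 for the endothelial gene Egfl7 and 825 for the glomerular endothelial gene Ehd3. In KO endothelium Fxyd2 was at 3168 ± 2557 and Umod at 939 ± 618, the latter below Egfl7 (1257). In WT podocytes, Fxyd2 was at 4162 ± 468 and Umod at 1477 ± 1154, beside 1701 for the cell cycle inhibitor gene Cdkn1c, 1011 for podocalyxin (Podxl) of the podocyte's surface coat and 647 for synaptopodin (Synpo) of its foot processes. In KO podocytes Fxyd2 was at 3792 ± 2057 and Umod at 1265 ± 1129, beside 1014 for Cdkn1c.

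The spread between libraries of 1 group was wide for these genes. edgeR's biological coefficient of variation, the relative SD beyond counting error, was 0.59 for Pvalb, 0.52 for Umod, 0.49 for Aqp2, 0.41 for Egf, Fxyd2 and Aqp3, and 0.37 for Calb1. The median was 0.31 over all genes tested and 0.20 over the 1919 genes with a mean of at least 100 CPM. Among those 1919 genes the 7 lay at percentiles 97 (Calb1) to 99.9 (Pvalb). In all 4 groups the library numbered 3 was the higher for Umod, Egf, Calb1, Pvalb and Fxyd2, except that by library totals without TMM Calb1 was lower in library 3 of WT endothelium (2037 against 2372). For Aqp2 and Aqp3 this held in the WT groups and not in the KO groups, so in 2 of 4. The mitochondrial share was also higher in library 3 of every group (26.2% against 13.3% in WT endothelium, 19.6% against 10.1% in KO endothelium, 16.9% against 12.2% in WT podocytes, 22.2% against 12.9% in KO podocytes). Its part in the levels was not tested, and the labels do not say that the numbers mark a shared batch.

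Ratios of counts within a library do not depend on scaling, and the 2 sets were drawn from them. The ratio of Aqp2 to Aqp3 stayed between 1.72 (KO endothelium 3) and 3.26 (WT endothelium 3), an SD of 0.29 on the log2 scale. Egf to Fxyd2 stayed between 0.314 and 0.591 (SD 0.32). Umod to Egf lay between 1.67 (WT podocyte 2) and 4.43 (WT endothelium 3), with an SD of 0.42, or 0.27 without WT podocyte 2. These were the 3 tightest of the 21 pairs, and the range of the ratio was 1.89-fold for Aqp2 to Aqp3, 1.88-fold for Egf to Fxyd2 and 2.65-fold for Umod to Egf. Within the first set it reached 5.73-fold for Umod to Calb1 and Umod to Pvalb.

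Across the sets the proportions moved far more. Umod counts were 12.02 times those of Aqp2 in KO endothelium 3 and 11.5 times in KO podocyte 3, but 0.680 times in KO podocyte 2. In the remaining libraries the ratio was 8.49 (WT endothelium 2), 4.46 (WT endothelium 3), 2.49 (KO endothelium 2), 2.64 (WT podocyte 2) and 4.997 (WT podocyte 3). The SD was 1.39 on the log2 scale, and 0.94 without KO podocyte 2. Over all 21 pairs, the 10 pairs across the sets had SDs of 1.05 or more and the 11 pairs within a set had SDs of 0.83 or less. That gap depended on KO podocyte 2: without it the pairs across the sets ran from 0.74 to 1.37 and those within a set from 0.30 to 0.87, and 3 pairs across (Fxyd2, Egf and Umod, each to Aqp3) were no wider than the widest within. The widest was Pvalb to Aqp2, 1.81, with ratios from 0.0118 to 0.512. The division into sets was made after these values were seen, so the count describes it and does not test it.

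**Figure D2:**
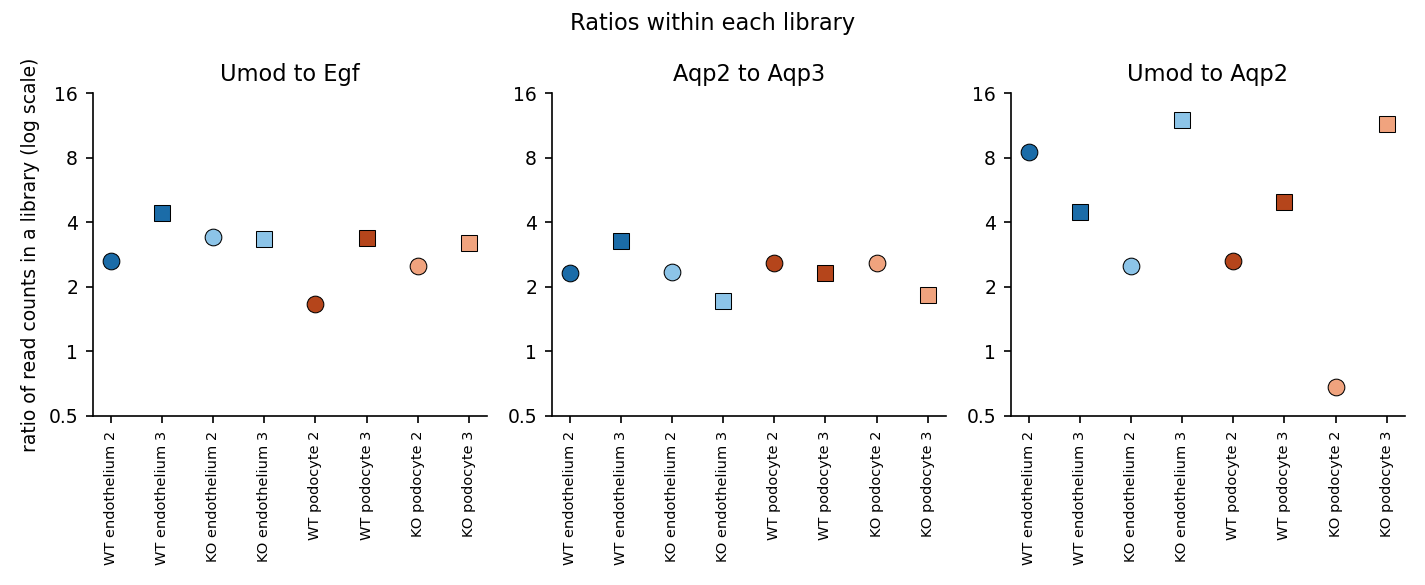
Ratios of counts within each library on a log axis, for chosen pairs of the 7 genes, with 1 point per library. The ratio of Aqp2 to Aqp3 stays between 1.72 and 3.26, while that of Umod to Aqp2 runs from 0.680 in KO podocyte 2 to 12.02 in KO endothelium 3.

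Correlations of log2 CPM over the 8 libraries, are given as a description. Umod had a Pearson r of 0.93 with Egf, 0.88 with Fxyd2, 0.83 with Pvalb and 0.67 with Calb1, but 0.15 with Aqp2 and 0.18 with Aqp3. Aqp2 and Aqp3 had r = 0.98. By Spearman's rho Calb1 stood less close to the first set, at 0.62 with Umod and 0.40 with Fxyd2 beside 0.24 with Aqp2. Without KO podocyte 2, Umod had r = 0.54 with Aqp2 and 0.65 with Aqp3, beside 0.58 with Calb1, 0.77 with Pvalb and 0.90 with Egf. By Spearman's rho without it, Calb1 was nearer Aqp2 (0.57) than Umod (0.46), Egf (0.46), Pvalb (0.43) or Fxyd2 (0.11). All values share the same 8 libraries and their scaling.

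Other genes known for these segments were set beside Umod and Aqp2. Of 10 thick ascending limb genes outside the 7 with a mean of at least 5 CPM, all 10 had a higher r with Umod than with Aqp2, among them the calcium-sensing receptor Casr (0.98 against 0.12) and the paracellular magnesium channel Cldn16 (0.97 against 0.29). For Cldn19 (0.70 against 0.56) and Irx2 (0.58 against 0.45) the values lay closest together. Of 10 distal convoluted tubule genes, 8 were nearer Umod, among them the kinase gene Wnk4 (0.88 against 0.05). The exceptions were Stk39 (0.57 against 0.59) and Sim1 (0.38 against 0.51). S100g, which encodes calbindin-D9k, followed neither (0.15 against -0.03) and varied only 2.02-fold, from 263 to 532 CPM. Its mean was 295 CPM in WT endothelium, 488 in WT podocytes, 359 in KO endothelium and 376 in KO podocytes. S100g did not pass between the cell types within WT (adjusted p = 0.171) or within KO (adjusted p = 0.921).

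Collecting duct genes lay on the other side. All 8 principal cell genes had a higher r with Aqp2 than with Umod, given here in that order, among them the vasopressin receptor Avpr2 (0.95 against 0.26), the enzyme Hsd11b2, which shields the mineralocorticoid receptor from glucocorticoids (0.91 against 0.29), and Aqp4 (0.88 against -0.04). Hoxb7 (0.44 against 0.24) and Npnt (0.30 against -0.24) followed Aqp2 least closely. All 6 intercalated cell genes also had a higher r with Aqp2, among them the ammonia transporter Rhbg (0.90 against 0.01). So did 12 of 12 proximal tubule genes, such as Ttc36 (0.83 against 0.12), although Aqp1, the water channel of the proximal tubule, followed neither closely (0.27 against -0.55). Of 16 genes of tubule epithelium in general, 4 were nearer Umod (Wfdc2, Defb1, Tmem213 and Clu).

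KO podocyte 2 weighed on these counts. Without it, 10 of 10 thick ascending limb genes and 10 of 10 distal convoluted tubule genes were nearer Umod, 6 of 8 principal cell genes, 6 of 6 intercalated cell genes and 10 of 12 proximal genes were nearer Aqp2, and 12 instead of 4 of the 16 epithelial genes were nearer Umod. Without WT endothelium 3, all 6 counts were the same as with all libraries. In KO podocyte 2 the 13 proximal genes summed to 12975 CPM, against 3317 to 6276 in the other podocyte libraries and 1086 to 2115 in endothelium. Most of each podocyte sum was Gpx3, at 9362 CPM in KO podocyte 2, 2448 in KO podocyte 3, and 3011 and 4658 in WT podocyte 2 and 3. All 13 genes were nonetheless higher in KO podocyte 2 than in both WT podocyte libraries.

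**Figure D3:**
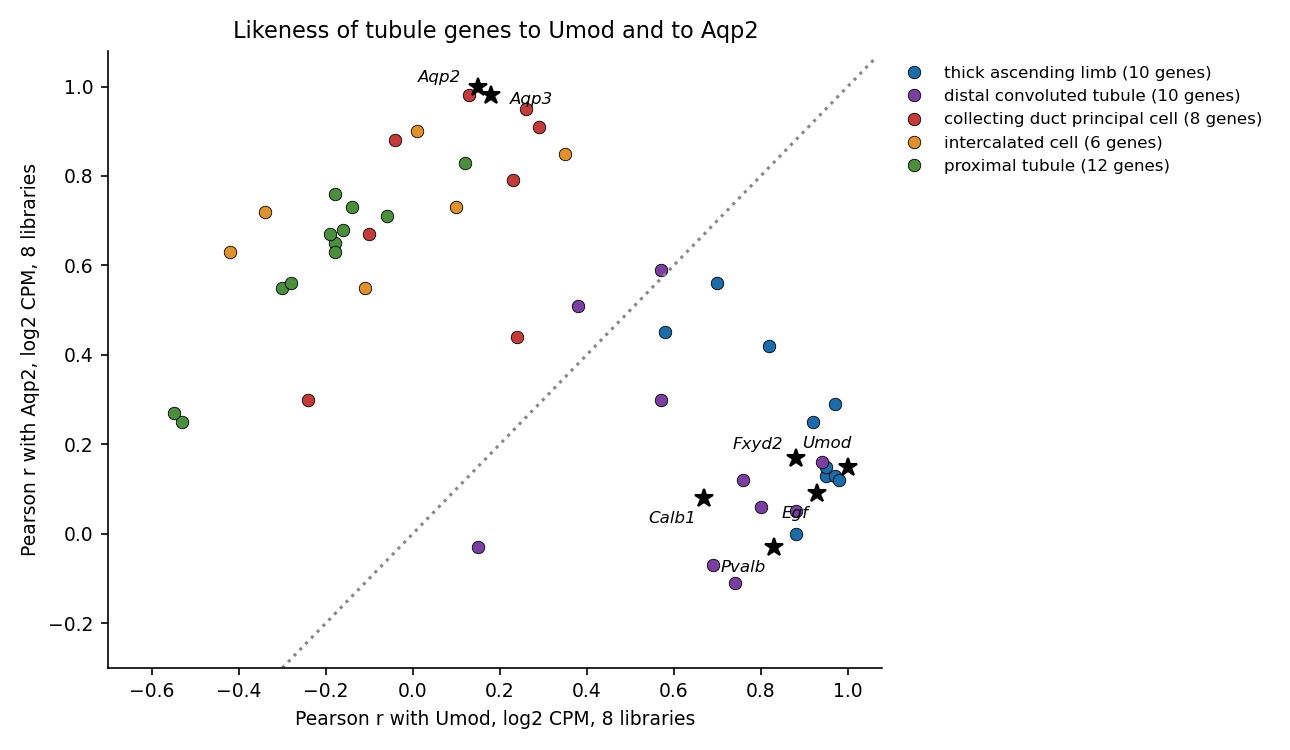
Pearson r of log2 CPM over the 8 libraries with Umod (horizontal) and with Aqp2 (vertical), with 1 point per gene, colours for the segment lists, stars for the 7 genes and a dotted line of equal r. All 10 thick ascending limb genes lie below the line and all 8 principal cell genes above it.

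The genes of most similar pattern over the 8 libraries were taken from the 10080 genes with a mean of at least 5 CPM, after the 7 were left out. For Umod they were Casr (Pearson r 0.983), Gpx6 (0.983), Sostdc1 (0.970), Cldn16 (0.967) and 4930481A15Rik (0.959). For Aqp2 they were Tmem254 (0.985), Adh1 (0.981), a gene listed without a symbol under Entrez ID 100039192 (0.977), Fxyd4 (0.975) and Rrad (0.965). RefSeq gives that identifier to Tmem254c, so its reads and those of Tmem254 may be split between near-identical copies. For the mean of the 7 genes they were Smim20 (0.992), Syt3 (0.987), Usp2 (0.983), Oxld1 (0.978) and Grb14 (0.968). With only 8 libraries and 10080 genes, high values are found by selection, and they are given as a description.

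The first comparison of the design asks whether the levels differed between endothelium and podocytes. None of the 7 genes passed the test over both genotypes, where 18.3% of all genes did, and the 4 libraries of each cell type overlapped for all 7 (21.9% of all genes did not overlap). The log2 fold change, positive where endothelium was higher, was 0.17 for Umod (95% interval -1.05 to 1.40, adjusted p = 0.882), -0.12 for Egf (-1.05 to 0.80, adjusted p = 0.892) and -0.07 for Calb1 (-0.90 to 0.76, adjusted p = 0.931). It was 0.66 for Pvalb (-0.73 to 2.05, adjusted p = 0.545) and 0.19 for Fxyd2 (-0.74 to 1.12, adjusted p = 0.819). For the aquaporins it was -0.49 for Aqp2 (-1.62 to 0.64, adjusted p = 0.583) and -0.57 for Aqp3 (-1.49 to 0.36, adjusted p = 0.417). The intervals include differences of more than 1.5-fold in at least 1 direction for each gene, so they do not show that the cell types had equal levels. The median over the 7 was -0.07, beside 0 over all genes.

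Within WT, none of the 7 passed (8.99% of all genes did), with log2 fold changes from -0.45 (Calb1) to 0.86 (Pvalb) and adjusted p-values from 0.655 to 0.954. Calb1 was at -0.09 without WT podocyte 3 and Pvalb at 0.23 without WT endothelium 3. The libraries of the cell types did not overlap for Calb1, lower in endothelium, and Pvalb, higher in endothelium, so for 2 of 7 (46.9% of all genes did not overlap). By library totals without TMM these were Pvalb and Fxyd2, both higher in endothelium. Within KO, none passed (10.4% of all genes did). Aqp2 had a log2 fold change of -1.45 (SE 0.74, adjusted p = 0.277) and Aqp3 one of -1.26 (SE 0.60, adjusted p = 0.245). Only Aqp3 did not overlap (55% of all genes did not; by library totals without TMM it overlapped too), and without KO podocyte 2 the value was -0.19 for Aqp2 and -0.36 for Aqp3.

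Other tubule lists were fitted in the same comparison over both genotypes. None of 14 thick ascending limb genes and none of 13 distal convoluted tubule genes passed, with Umod, Egf, Calb1, Pvalb and Fxyd2 counted among them and medians of -0.05 and -0.07. Among 11 principal cell genes only Npnt passed, lower in endothelium (-2.79, adjusted p = 1.62e-05); it encodes nephronectin, a matrix protein that podocytes also make. Among 7 intercalated cell genes only Dmrt2 passed (-1.31, adjusted p = 0.0367). Of 13 proximal tubule genes 12 were below 0 (median -1.70) and 8 passed, all lower in endothelium, among them Keg1 (-3.86, adjusted p = 0.000857), Miox, which breaks down inositol (-3.42, adjusted p = 0.0128), and the secreted glutathione peroxidase Gpx3 (-2.27, adjusted p = 0.00299). Of 18 general epithelial genes 15 were below 0 (median -0.80) and 7 passed, all lower in endothelium, among them the kidney transcription factor gene Pax8 (-2.56, adjusted p = 0.000351), Krt19 (-2.16, adjusted p = 0.0208) and Spp1, which encodes osteopontin (-1.35, adjusted p = 0.0166). Within WT 1 of 13 proximal genes (median -1.53) and 1 of 18 epithelial genes (median -0.33) passed, and within KO 7 of 13 (median -2.26) and 6 of 18 (median -1.32), where KO podocyte 2 stands apart for these genes.

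Markers of further cell types were present beside these. Over the libraries the 7 mesangial and mural markers analysed, of 10 listed, summed to 309 to 665 CPM in endothelium and 482 to 1252 in podocytes. Gata3 is on this list and on that of principal cells. The 6 immune markers analysed, of 10 listed, summed to 26.9 to 58.7 CPM in endothelium and 85.3 to 122 in podocytes. Most of the podocyte sum was Csf1r (mean 71.2 CPM in WT, 91.7 in KO), which passed as lower in endothelium (-3.20, adjusted p = 5.51e-06). The other way, 4 of 5 immune genes tested were above 0 over both genotypes (median of the 5, 0.48), and Lyz2 passed as higher (1.49, adjusted p = 0.0204). Neither the mesangial nor the immune list summed to 0 in any library, and at most 1 immune gene had 3 counts or fewer in a library. The 12 endothelial markers summed to 520 to 910 CPM in podocyte libraries and the 7 podocyte markers to 1486 to 2824 in endothelial libraries. The part of any of these in the levels was not tested.

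**Figure D4:**
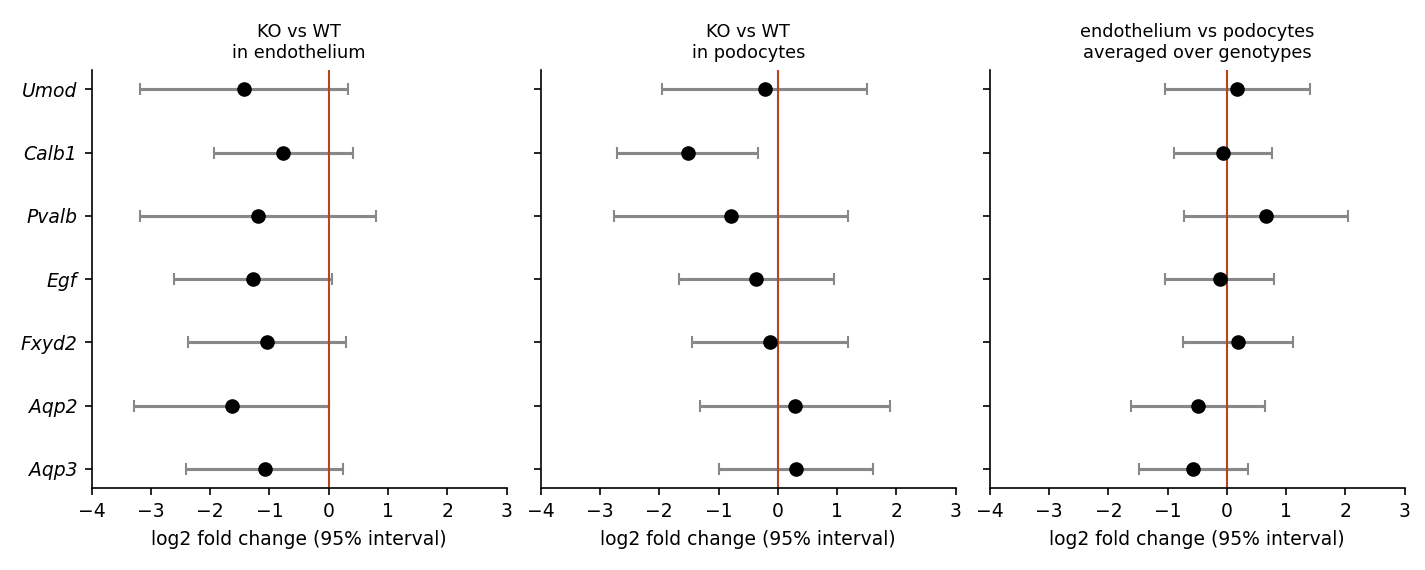
Log2 fold change of each gene from edgeR with its 95% interval, for KO against WT in endothelium and in podocytes and for endothelium against podocytes over both genotypes, with a line at 0. All 7 points lie below 0 for KO against WT in endothelium, and the intervals span 0 except for Calb1 in podocytes and Aqp2 in endothelium, whose interval ends at 0.

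The next comparison asks whether loss of EMCN changed the levels in endothelium. All 7 fold changes were below 0, with a median of -1.19 beside 0.01 over all genes, but none of the 7 passed the test (0.00607% of all genes did, which was Emcn alone). Umod had a log2 fold change of -1.43 (SE 0.80, adjusted p = 0.716), Egf -1.28 (SE 0.60, adjusted p = 0.716), Fxyd2 -1.04 (SE 0.60, adjusted p = 0.716), Pvalb -1.19 (SE 0.90, adjusted p = 0.727, or -2.01 by voom) and Calb1 -0.77 (SE 0.53, adjusted p = 0.724). For Aqp2 it was -1.64 (SE 0.74, adjusted p = 0.716) and for Aqp3 -1.08 (SE 0.59, adjusted p = 0.716). The KO libraries lay below the WT libraries without overlap for Umod, Egf and Calb1, 3 of 7, where 44.5% of all genes did not overlap in either direction. By library totals without TMM only Egf, 1 of 7, did not overlap. Genes of a set vary together between libraries, so their shared sign is not 7 separate observations. Single libraries moved these values. Without WT endothelium 3 the value was -0.60 for Umod, -0.38 for Fxyd2, -0.09 for Aqp2 and 0.08 for Aqp3. Without KO endothelium 2 it was -0.10 for Calb1, -0.32 for Pvalb and -0.73 for Egf. Without KO endothelium 3 the values of the first set were further from 0, down to -3.82 for Pvalb. The 7 podocyte markers were also all below 0 in KO endothelium (median -0.44), with none past the threshold, and their part in the result was not tested.

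Most genes of the same segments outside the 7 were below 0 in KO endothelium, where 49.6% of all genes were. Of 12 thick ascending limb genes 11 were below 0 (median -1.15), of 10 distal convoluted tubule genes 9 (median -0.87) of 9 principal cell genes 8 (median -0.69) and of 7 intercalated cell genes 5 (median -0.39), and none of them passed. Of 13 proximal tubule genes 9 were below 0 (median -0.44) and of 18 general epithelial genes 17 (median -0.77), also with none past the threshold. These genes are read in the same libraries as the 7, and many vary with them, so the counts are not separate observations. The counts were not repeated with a library left out.

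In podocytes, none of the 7 passed either (0.00607% of all genes did, again Emcn alone). The largest value was that of Calb1, -1.52 (SE 0.54, 95% interval -2.72 to -0.33, adjusted p = 0.978). Pvalb had -0.79 (SE 0.89), Egf -0.36 (SE 0.59), Umod -0.22 (SE 0.78) and Fxyd2 -0.13 (SE 0.59), while Aqp2 had 0.29 (SE 0.72) and Aqp3 0.30 (SE 0.59), with adjusted p-values of 0.981 to 0.993. Calb1 and Pvalb, 2 of 7, were lower in KO without overlap (31.2% of all genes did not overlap). The median of the 7 was -0.22, beside 0.02 over all genes. Without KO podocyte 2 the value was -0.07 for Pvalb, 0.27 for Egf, 0.48 for Umod and 0.33 for Fxyd2, and those for Aqp2 and Aqp3 were -0.99 and -0.61. Without KO podocyte 3 Pvalb was at -2.31. By library totals without TMM, Calb1 alone did not overlap. The 7 podocyte markers were all below 0 in KO podocytes (median -0.63), with none past the threshold, and their part was not tested. Outside the 7, genes of the same segments went in both directions in KO podocytes, where 47.8% of all genes were below 0. Below 0 were 5 of 12 thick ascending limb genes (median 0.01), 7 of 10 distal convoluted tubule genes (median -0.36) and 3 of 9 principal cell genes (median 0.19). So were 3 of 7 intercalated cell genes (median 0.19) and 7 of 18 general epithelial genes (median 0.09), and none passed. Of the 13 proximal tubule genes all 13 were above 0 (median 0.66), and none passed. In KO podocyte 2 all 13 lay above both WT podocyte libraries, while in KO podocyte 3 2 lay above and 5 below both.

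The difference between the KO effects in the cell types was tested for each gene and passed for none of the 7, nor for any of the 16477 genes (0%, with 428 genes at an unadjusted p under 0.05 in edgeR). The terms, endothelium minus podocytes, ran from -1.93 (Aqp2) to 0.76 (Calb1), and all 7 adjusted p-values were 1. Without WT endothelium 3 the term was -0.37 for Aqp2 and -0.22 for Aqp3, and without KO podocyte 3 it was -0.21 for Fxyd2.

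Calb1 was the 1 gene of the 7 whose 4 KO libraries all lay below the 4 WT libraries in TMM-scaled CPM (by library totals alone, none of the 7 did), and an average KO effect over the cell types was added after this had been seen. Its log2 fold change was -1.14 (SE 0.38, 95% interval -1.98 to -0.31), with an adjusted p of 0.558. The groups did not overlap for 3.46% of all genes, and 0.00607% passed. The other 6 genes had values from -0.99 (Pvalb) to -0.39 (Aqp3), with adjusted p-values of 0.558 to 0.713. With each library left out in turn, Calb1 stayed between -1.80 and -0.81, while Pvalb ran from -2.31 to -0.56, Umod from -1.55 to -0.25, Egf from -1.41 to -0.51 and Fxyd2 from -1.20 to -0.26. Aqp2 and Aqp3 changed sign without WT endothelium 3 (0.10 and 0.19).

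The wider families of these genes were read beside them. Besides Aqp2 and Aqp3, 10 aquaporins summed to 154 to 1175 CPM. Aqp1, which lines the proximal tubule and descending limb, was at 126 and 221 CPM in WT endothelium, 518 and 311 in KO endothelium, 228 and 279 in WT podocytes, and 1084 and 428 in KO podocytes, with KO podocyte 2 again highest. No aquaporin of the 9 tested passed between cell types. Among the FXYD genes, Fxyd5, which is known from cell adhesion, was higher in endothelium (log2 fold change 4.08, SE 0.26, adjusted p = 3.12e-06) and Fxyd1, phospholemman, was lower (-2.30, SE 0.38, adjusted p = 0.00171), while Fxyd2 did not pass. Of 11 EGF receptor ligands and receptors, 9 were below 0 between endothelium and podocytes and 4 passed: Tgfa (-2.20, adjusted p = 0.00128), Egfr (-1.58, adjusted p = 0.00501), Erbb2 (-1.07, adjusted p = 0.000851) and Erbb4 (-1.72, adjusted p = 0.00243). None of these families had a gene past the threshold for KO against WT in either cell type.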

How the data were processed

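Gene counts were used as the authors deposited them, in 1 table of 8 libraries, per the file headers. The submitters' processing notes name mm10 and DESeq2; the aligner, counter and annotation are not given in the sources used here. Of 22533 gene lines, 5207 (23.11%) have text that breaks the columns and were not analysed, and 617 of the 17326 complete lines have no symbol. Library totals are sums over complete lines.

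The 7 genes, the gene lists and the rule for named genes were chosen with earlier results of these data known. That rule picks the 7 genes and, from each list, the genes past the threshold (the 3 of largest change where there are more than 3) and the 2 of highest mean CPM, as well as the 5 genes of most similar pattern. Some genes that it picks, such as Acsm2, Kng2, Tmem52b, Rhcg and Hbegf, are not described above. Further list genes named for their correlation, the motifs, the division into 2 sets, the pairs for ratios and the average KO effect were chosen after values were seen. Of the lists, 14 of 18 thick ascending limb, 13 of 19 distal convoluted tubule, 11 of 15 principal cell, 7 of 13 intercalated cell, 13 of 24 proximal and 18 of 20 epithelial genes were on complete lines. So were 7 of 12 podocyte, 7 of 10 mesangial and mural, 6 of 10 immune, 6 of 14 FXYD and Na,K-ATPase and 11 of 13 EGF family genes. A further marker list is not reported here.

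Counts were filtered with filterByExpr by group, scaled by TMM, and fitted with edgeR 4.0.16 (R 4.3.3) over all 8 libraries with 4 group means and no replicate block. Quasi-likelihood tests were adjusted by Benjamini-Hochberg over 16477 genes. Log2 CPM for correlations used a prior count of 2. SEs and 95% intervals were computed from the F statistic. Levels per kilobase used the longest coding transcript in GENCODE M21. The scripts were tested on simulated data with 200 changed genes. Alternatives were DESeq2's size factors and Wald test (DESeq2 1.42.0), scaling by library size only, limma's voom with sample quality weights (limma 3.58.1), no filter, a minimum mean of 5 CPM, a replicate block, the compared libraries alone, no mitochondrial genes (15 genes), and leaving out each library. The overlap of groups by library totals, the ratios and correlations without KO podocyte 2 and the proximal genes in each KO podocyte library were added after values were seen.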

Additional observations from a re-analysis of the deposited data

How the results depend on the processing

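None of the 7 genes passed the threshold in any of the 7 comparisons under any alternative. The lowest adjusted p was 0.0598 with all libraries kept and 0.0776 with 1 left out. Of 49 values (7 genes in 7 comparisons), 4 changed sign under a setting that kept all libraries and 28 when 1 library was left out, so most directions rest on single libraries, and the cause was not tested. With 1 library left out, the lone library of its group is assumed to vary like the others.

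Genes called for KO against WT numbered 1 in endothelium and 1 in podocytes. In endothelium they were 0 by library size only and at a mean of 5 CPM, 10 by DESeq2's Wald test, and 0 to 1 with 1 library left out. In podocytes they were 0 by library size only, by voom, at 5 CPM and with only the libraries compared, 12 by DESeq2's Wald test, and 0 to 1 with 1 library left out. The average KO effect gave 13 by DESeq2's Wald test. With 1 library left out, endothelium against podocytes gave as few as 769 genes in WT (without WT podocyte 2; 922 without WT endothelium 3) and 960 in KO (without KO endothelium 2; 1115 without KO endothelium 3 and 1079 without KO podocyte 2), and at most 1672 and 1809.

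The replicate numbers are not known to pair the samples: correlations of same-numbered libraries' deviations ran from -0.13 to 0.19. With the replicate block the calls were 1, 1 and 0 for the KO effects and their difference, 1831, 2241 and 3435 for the cell types in WT, in KO and on average, and 2 for the average KO effect. With the podocyte numbers swapped, chosen after seeing the data, 1357 genes were called in WT and 1578 in KO.

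With all libraries kept, Aqp3 in WT (endothelium against podocytes) turned to -0.04 by voom and -0.09 with the swapped replicate block, and Pvalb in KO to -0.02 by voom. On average over genotypes Calb1 turned to 0.06 by library size only, 0.02 at 5 CPM and 0 without mitochondrial genes, and Egf to 0.01 by library size only. Moves of over 1.5 times with the sign kept were, by voom, Pvalb for KO in endothelium (-2.01), in podocytes (-1.22) and on average (-1.62) and for the cell types on average (0.37), and Calb1 for the difference of the KO effects (0.46). By library size only they were, for KO in endothelium, Calb1 (-0.49) and Aqp3 (-0.64), and, on average, Aqp2 (-0.38) and Fxyd2 (-0.37), and Egf for the cell types in KO (-0.34). With the replicate block Pvalb was at -1.36 for KO in podocytes, -1.54 on average and 0.41 for the cell types. These leave out values under 0.5 in size. Scaling by library size only moved the median of all genes by 0.32 for KO in endothelium, 0.28 for the cell types in KO and 0.22 for the average KO effect.

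With 1 library left out, these values changed sign. For KO in endothelium the log2 fold changes ran over Aqp3 -1.73 to 0.08. For KO in podocytes the log2 fold changes ran over Umod -1.66 to 0.93, Egf -1.52 to 0.27, Fxyd2 -0.83 to 0.33, Aqp2 -0.99 to 0.95 and Aqp3 -0.61 to 0.90. For the difference of the KO effects the log2 fold changes ran over Umod -2.37 to 0.23, Calb1 -0.55 to 1.42, Pvalb -3.02 to 1.11 and Egf -1.84 to 0.23. For the cell types in WT the log2 fold changes ran over Umod -0.06 to 1.93, Egf -0.01 to 0.78, Fxyd2 -0.03 to 1.10, Aqp2 -1.09 to 1.20 and Aqp3 -1.05 to 0.76. For the cell types in KO the log2 fold changes ran over Umod -1.34 to 1, Calb1 -1 to 0.98, Pvalb -2.16 to 1.97, Egf -1.5 to 0.57 and Fxyd2 -1.49 to 0.43. For the cell types on average the log2 fold changes ran over Umod -0.28 to 0.89, Calb1 -0.73 to 0.27, Pvalb -0.65 to 1.42, Egf -0.58 to 0.45, Fxyd2 -0.42 to 0.54 and Aqp2 -1.28 to 0.14. For the average KO effect the log2 fold changes ran over Aqp2 -1.32 to 0.10 and Aqp3 -0.85 to 0.19. The SD of the log2 ratio of Umod to Egf ran from 0.27 to 0.45, of Umod to Aqp2 from 0.94 to 1.5 and of Aqp3 to Aqp2 from 0.23 to 0.31.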
